A study of Caenorhabditis elegans with 12 samples.

Results

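Muscle, actin and microtubule cytoskeleton genes were examined in RNAseq of whole C. elegans. The group was formed from gene symbols alone: protein-coding genes named as actins, myosins and their light chains, troponins, tubulins, intermediate filaments, kinesins, dyneins, actin capping or assembly factors and pat genes, together with 14 further muscle and cytoskeleton genes listed by symbol, such as unc-54, lev-11 and unc-52. Of 106 genes in the annotation that fit these names, 39 are among the 5272 genes (3363 of them protein-coding) for which counts of each library were used here. The other members of these families were not analysed here.

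Muscle contracts when thick filaments of myosin pull on thin filaments of actin, and calcium controls this through troponin and tropomyosin, which sit on the thin filament. In C. elegans the body wall muscle moves the animal, the pharynx pumps bacteria into the gut, and both transmit force through attachments to the surrounding matrix and epidermis. Actin also shapes non-muscle cells, including the microvilli of the gut, while tubulins form the microtubules on which kinesins and dynein carry cargo and which build the spindles of dividing germ cells and embryos.

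RNA came from about 1000 pooled nematodes per sample at day 6 of age, taken as whole bodies. There were 3 groups of 4 libraries: unexposed wild type (WT, strain Bristol N2), WT exposed to 500 µM FW1256 from the L1 larval stage onwards, and eat-2 mutants (strain DA1116). FW1256 is a compound that releases H2S. EAT-2 is a subunit of an acetylcholine receptor of pharyngeal muscle, and eat-2 mutants eat slowly, which makes them a common genetic model of caloric restriction (CR). The mutants were thus a single strain. Per the paper's methods, L1 larvae were first kept in liquid with E. coli OP50-1 and streptomycin, with or without the donor. They were then moved to agar seeded with E. coli OP50-1, again with or without it. All groups were taken at the same age in days. The authors report later development and reproduction under FW1256 and in eat-2 mutants than in unexposed WT. They also report fewer eggs and shorter adults in eat-2 mutants. The part of stage and body size in the RNA changes was not tested. One treatment note in the labels mentions FW1256 for every sample, whereas the titles, the sample characteristics and the design text give it to 4 samples only, and these were followed. The comparisons asked how the RNA of FW1256-exposed WT and of eat-2 mutants differed from that of unexposed WT, and whether they differed from each other.

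Total estimated counts per library ranged from 14769332 to 19199982 over the genes of the tables. Values are given as CPM, which are counts scaled to a common library total (edgeR's CPM after TMM scaling), so they describe shares of this gene set and not of the whole transcriptome. The labels do not say whether the 4 libraries of a group came from separate cultures, so p-values measure the spread between these samples only. All libraries of a group differed by more than counting noise, with a chi-square per gene between 11.6 and 48.1 for each pair. Markers of gut, germline, neurons, hypodermis and pharynx were detected in every group. Of the neuron markers, egl-3 was at 0 in all libraries and unc-18 had group means between 0.06 and 0.11 CPM. The eat-2 gene itself was not analysed here, so the mutant label was not checked on its target.

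For 11 of the 39 members the counts appear to hold only part of the gene. The authors' mean count in the table of their FW1256 comparison, which lies near the per-library counts, was between 3.80% and 77.6% of that in the table of their eat-2 comparison for these 11 genes, against 97.7% to 102% for the other 28. The 11 were lev-11 (42.9%), tnt-3 (41.2%), unc-87 (3.80%), myo-6 (30.9%), unc-52 (9.12%), pat-12 (77.6%), dys-1 (4.76%), ifb-1 (45.4%), ifa-1 (21.1%), klp-12 (37.7%) and dhc-1 (12.3%). All 11 have between 2 and 20 annotated transcripts, whereas none of the 19 members with a single transcript was affected. Over all genes with both means, 1061 of 5114 were under 90%. The libraries behind those means are not stated. Values of these 11 genes are those of the counts listed and not of all RNA of the gene. Separately, 13 members overlap another protein-coding gene in their span from start to end, on either strand. Reads were matched to transcripts, so reads may be mixed only where such a pair shares transcript sequence, which was not checked. The sources used here do not say that counting used strand. The 13 are unc-22, myo-6, tni-3, tni-4, unc-87, act-4, unc-52, pat-12, unc-112, ifb-1, klp-12, klp-20 and dli-1.

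Under FW1256 most of these genes rose. Of the 39 members, 26 were higher and 2 were lower than in unexposed WT, and 11 did not pass the test (edgeR's quasi-likelihood test, Benjamini-Hochberg adjusted p under 0.05 over 3616 genes tested). Among all genes tested, 50.2% passed it (are called below), 25.5% as higher and 24.8% as lower. The median log2 fold change was 0.35 over the members and -0.003 over all genes tested. With library size alone in place of TMM scaling, 23 members were higher and 5 were lower, and of all genes tested 691 were higher and 1055 lower, against 922 and 895 with TMM. In 25 members every FW1256 library lay above every WT library and in 1 every library lay below, where the same held for 25.4% and 22.6% of all genes tested (47.9% in either direction).

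In eat-2 mutants 17 members were higher, 7 were lower and 15 did not pass the test, out of 3786 genes tested. Here 44.2% of all genes tested were called, 21.8% as higher and 22.4% as lower. The median log2 fold change was 0.20 over the members and 0.02 over all genes tested. In 17 members every mutant library lay above every WT library and in 8 every mutant library lay below, where the same held for 19.5% and 23.7% of all genes tested (43.2% in either direction). Both comparisons use the same 4 WT libraries, so a WT library that is high or low shifts both in the same direction. Because this is RNA of whole animals, fewer cells of a type and less RNA per cell cannot be told apart.

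**Figure D1:**
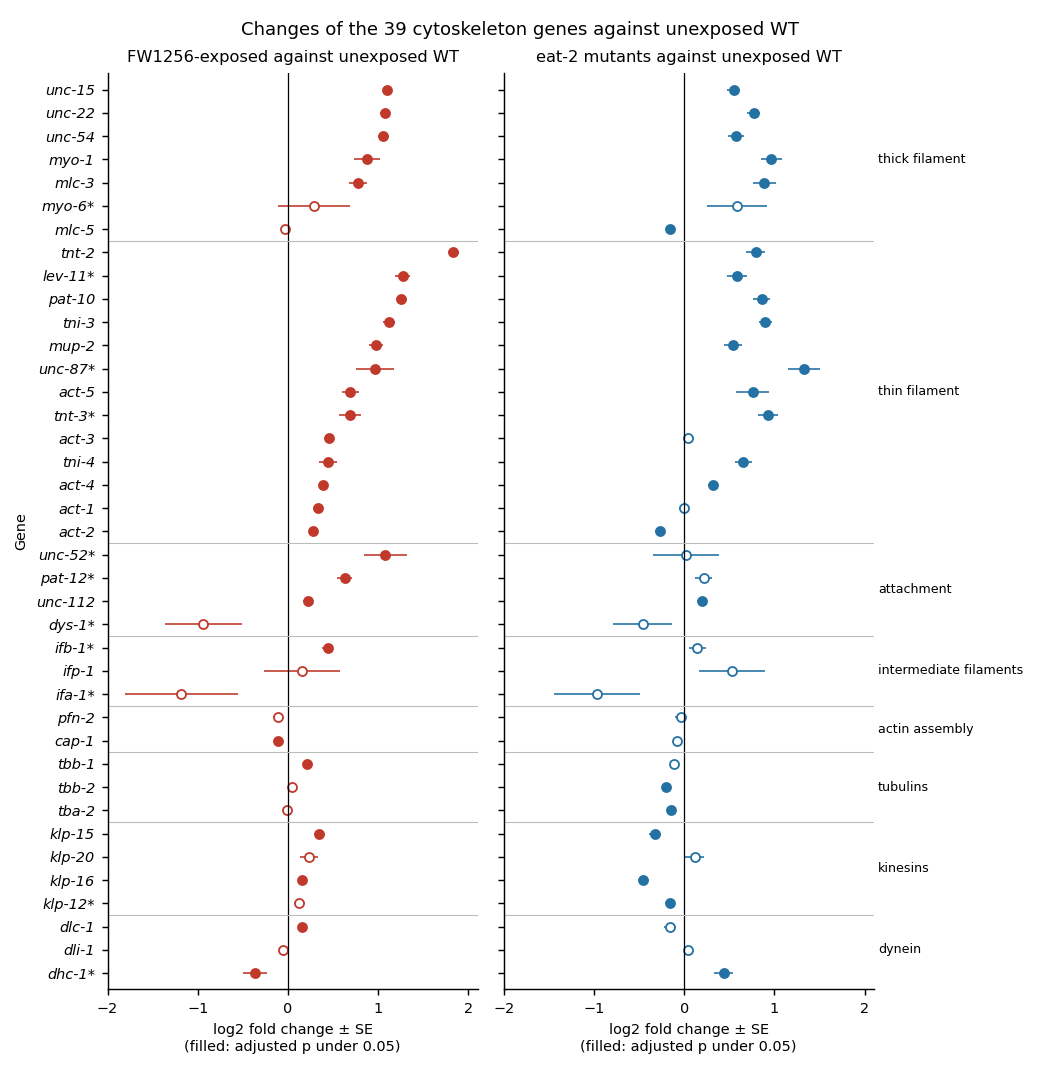
Log2 fold change (x axis, ± SE) of each of the 39 genes against unexposed WT, for FW1256-exposed WT (left, red) and eat-2 mutants (right, blue), 4 libraries per group, grouped by role on the y axis. Filled points have an adjusted p under 0.05, open points do not, and an asterisk marks genes whose counts appear to hold only part of the gene. All 13 thin filament genes lie to the right of 0 under FW1256, while the tubulins and 3 of the 4 kinesins lie to the left of 0 in eat-2 mutants.

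Of the 7 thick filament genes, the same 5 were higher in eat-2 mutants and under FW1256: unc-54, unc-15, unc-22, myo-1 and mlc-3. Their rises lay between 1.72-fold and 2.14-fold under FW1256 and between 1.47-fold and 1.95-fold in eat-2 mutants. The summed level of the 7 genes was 1872 to 2106 CPM in unexposed WT, 3199 to 3565 CPM under FW1256 and 2545 to 3055 CPM in eat-2 mutants, so that none of the groups overlapped. Markers of other tissues moved beside these genes in eat-2 mutants. There 8 of 10 gut markers and 4 of 5 neuron markers tested were higher. Of these 4 neuron markers, unc-64 (24.3%) and unc-25 (82.35%) had counts that appear to hold only part of the gene. The marker unc-47 had group means between 0.78 and 1.5 CPM, which leaves egl-21, with a log2 fold change of 0.56. In the same mutants 18 of 19 oocyte and germline markers were lower. The summed level of the oocyte and germline markers was 27070 ± 1258 CPM in unexposed WT and 20180 ± 665 CPM in eat-2 mutants (SD, n = 4), and the part of tissue content in the changes of muscle genes was not tested.

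The gene unc-54 encodes the main myosin heavy chain of body wall muscle (chromosome I, 14855901 to 14863482, WBcel235). unc-54 stood at 540.4, 612, 566 and 536 CPM in unexposed WT, at 1250, 1224, 1171 and 1081 CPM in FW1256-exposed WT and at 768, 937, 871 and 723 CPM in eat-2 mutants. Every FW1256 library was above every mutant library and every mutant library was above every WT library. The rise of unc-54 over WT was 1.06 ± 0.057 on the log2 scale (SE), 2.08-fold (adjusted p = 2.16e-06), and in eat-2 mutants it was 0.57 ± 0.088 on the log2 scale (SE), 1.49-fold (adjusted p = 9.97e-04). Paramyosin forms the core of the thick filament and is encoded by unc-15 (chromosome I, 7376604 to 7383197). unc-15 stood at 347, 346, 338 and 317 CPM in unexposed WT, at 729.8, 765, 720.5 and 692 CPM in FW1256-exposed WT and at 465, 543, 495 and 442 CPM in eat-2 mutants. These 3 groups did not overlap either, with the mutants between the other two. The rise under FW1256 was 1.098 ± 0.043 on the log2 scale (SE), 2.14-fold (adjusted p = 4.68e-07), and that in eat-2 mutants was 0.55 ± 0.070 on the log2 scale, 1.47-fold (adjusted p = 4.66e-04). Twitchin, a giant kinase of the thick filament, is encoded by unc-22 (chromosome IV, 11972697 to 12011007). unc-22 stood at 100.2, 103, 114 and 97.2 CPM in unexposed WT, at 226, 222, 222 and 211 CPM in FW1256-exposed WT and at 166, 189, 179 and 163 CPM in eat-2 mutants. FW1256-exposed WT was higher with a log2 fold change of 1.07 ± 0.056, 2.11-fold (adjusted p = 2.06e-06), and eat-2 mutants were higher with a log2 fold change of 0.77 ± 0.074, 1.71-fold (adjusted p = 1.34e-04).

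Pharyngeal muscle has its own myosin heavy chains, of which myo-1 (chromosome I, 7258946 to 7267057) was measured. myo-1 stood at 54.5, 71.7, 58.0 and 50.4 CPM in unexposed WT, at 109, 132, 84.9 and 107 CPM in FW1256-exposed WT and at 112.2, 122, 117 and 101 CPM in eat-2 mutants. All libraries of both groups were above those of unexposed WT, and the 2 groups overlapped each other. myo-1 rose under FW1256 with a log2 fold change of 0.87 ± 0.14, 1.83-fold (adjusted p = 8.79e-04), and in eat-2 mutants with a log2 fold change of 0.97 ± 0.11, 1.95-fold (adjusted p = 3.67e-04). The essential myosin light chain mlc-3 (chromosome III, 5565025 to 5567382) behaved in the same way. mlc-3 stood at 365, 484, 346 and 372 CPM in unexposed WT, at 663, 745, 672 and 630.3 CPM in FW1256-exposed WT and at 613, 843, 730.0 and 671 CPM in eat-2 mutants. The highest mutant library, replicate 2, stood above all FW1256 libraries, and the lowest stood below them. The change under FW1256 was 0.78 ± 0.10 on the log2 scale, 1.72-fold (adjusted p = 2.32e-04), and in eat-2 mutants it was 0.89 ± 0.13 on the log2 scale, 1.85-fold (adjusted p = 6.87e-04).

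Per transcript length, mlc-5, an essential light chain of non-muscle myosin (chromosome III, 13623314 to 13624170), had the highest level of the thick filament list, at 752 CPM per kb in unexposed WT. mlc-5 stood at 485, 484, 471 and 497 CPM in unexposed WT, at 494, 474, 462 and 472 CPM in FW1256-exposed WT and at 443, 417, 418 and 438 CPM in eat-2 mutants. The mutant libraries were below all WT libraries, and the FW1256 libraries overlapped WT. mlc-5 fell in eat-2 mutants, where no other gene of the list was lower, with a log2 fold change of -0.15 ± 0.035 (adjusted p = 0.00703). Under FW1256 the value was -0.04 ± 0.033 on the log2 scale (adjusted p = 0.374), and with library size alone it was -0.10 (adjusted p = 0.039). A further myosin heavy chain gene, myo-6, had few counts, with means between 3.84 and 5.72 CPM in the 3 groups, and did not pass the test in any comparison.

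**Figure D2:**
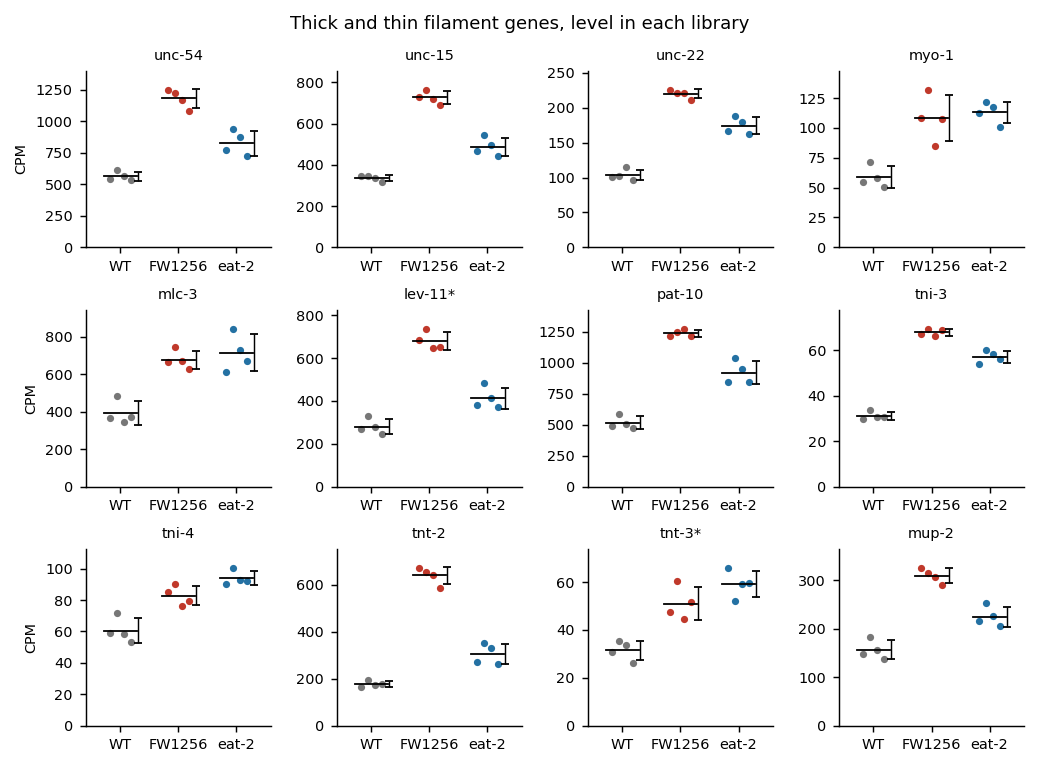
Level in CPM (y axis, from 0) of 12 thick and thin filament genes in each of the 12 libraries, grouped as unexposed WT (grey), FW1256-exposed WT (red) and eat-2 mutants (blue). Points are libraries, lines are means and bars are the SD of 4 libraries; an asterisk marks counts that appear to hold only part of the gene. All FW1256 libraries and all mutant libraries lie above all WT libraries in each of the 12 genes.

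Tropomyosin and troponin genes, which make the thin filament responsive to calcium, held the largest rises of the members under FW1256. Of the 13 thin filament genes, 13 were higher under FW1256 (1.22-fold to 3.56-fold), and in eat-2 mutants 10 were higher, 1 was lower and 2 did not pass the test. This list holds all 5 actins, also those of non-muscle cells such as act-5 of the gut. Of the 14 thick and thin filament genes other than the actins and mlc-5, 13 were higher and 1 did not pass in each comparison with WT. The troponins, tropomyosin and unc-87 were higher in both, whereas the actins were divided.

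The largest of these rises was that of tnt-2, a troponin T gene (chromosome X, 8721546 to 8723550). tnt-2 stood at 165, 196, 175 and 179 CPM in unexposed WT, at 672, 657, 644 and 588 CPM in FW1256-exposed WT and at 272, 354, 329.8 and 264 CPM in eat-2 mutants. The lowest FW1256 library was above the highest mutant library, and the lowest mutant library was above the highest WT library. The rise under FW1256 was 1.83 ± 0.061 on the log2 scale, 3.56-fold (adjusted p = 3.67e-07), and it ranked 28 among the 3616 genes tested. In eat-2 mutants it was 0.79 ± 0.10 on the log2 scale, 1.73-fold (adjusted p = 4.84e-04). Body wall muscle troponin C, the calcium sensor, is encoded by pat-10 (chromosome I, 5018783 to 5020358). pat-10 stood at 487, 588, 508 and 473 CPM in unexposed WT, at 1213, 1246, 1273 and 1215 CPM in FW1256-exposed WT and at 843, 1039, 946 and 846 CPM in eat-2 mutants. The groups were again in the order WT, mutants, FW1256 with no overlap. Under FW1256 the change was 1.26 ± 0.064 on the log2 scale, 2.39-fold (adjusted p = 1.87e-06), and in eat-2 mutants it was 0.86 ± 0.092 on the log2 scale, 1.81-fold (adjusted p = 2.47e-04).

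Among the troponin I genes, which hold contraction off when calcium is low, tni-3 (chromosome V, 16833638 to 16835128) was again lowest in unexposed WT and highest under FW1256. tni-3 stood at 29.9, 33.5, 30.4 and 30.4 CPM in unexposed WT, at 67.0, 69.5, 66.3 and 69.1 CPM in FW1256-exposed WT and at 53.97, 60.1, 58.3 and 56.01 CPM in eat-2 mutants. Spread within each group was small beside the gaps between the groups. tni-3 rose under FW1256 with a log2 fold change of 1.118 ± 0.063, 2.17-fold (adjusted p = 2.33e-06), and in eat-2 mutants with a log2 fold change of 0.90 ± 0.074, 1.86-fold (adjusted p = 7.53e-05). The gene overlaps phy-3. The pharyngeal troponin I tni-4 differed from tni-3 in that its mean was highest in eat-2 mutants, at 93.8 ± 4.52 CPM (SD, n = 4), against 82.9 ± 6.14 CPM under FW1256 and 60.5 ± 7.80 CPM in unexposed WT. tni-4 was higher under FW1256 with a log2 fold change of 0.44 ± 0.096, 1.36-fold (adjusted p = 0.00386), and in eat-2 mutants with a log2 fold change of 0.65 ± 0.095, 1.57-fold (adjusted p = 7.58e-04). Of the 3 pharynx markers used here, 2 are myo-1 and tni-4 themselves, and the third, abu-8, did not pass the test in any comparison. The part of pharynx content in the changes of these genes was not tested.

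Tropomyosin is encoded by lev-11 (chromosome I, 14621169 to 14631094), which has 20 annotated transcripts and whose counts here amount to 42.9% of the larger mean. lev-11 stood at 268, 330.0, 277 and 244 CPM in unexposed WT, at 684, 738, 648 and 653 CPM in FW1256-exposed WT and at 383, 482, 414 and 374 CPM in eat-2 mutants. The groups did not overlap. The rise under FW1256 was 1.27 ± 0.085 on the log2 scale, 2.41-fold (adjusted p = 6.79e-06), and in eat-2 mutants it was 0.58 ± 0.11 on the log2 scale, 1.498-fold (adjusted p = 0.00262). The troponin T genes mup-2 and tnt-3 also rose in both. mup-2 went from 156.5 ± 19.4 CPM (SD, n = 4) in unexposed WT to 309.6 ± 14.7 CPM under FW1256 and to 225 ± 20.3 CPM in eat-2 mutants. mup-2 rose under FW1256 with a log2 fold change of 0.97 ± 0.079, 1.96-fold (adjusted p = 1.75e-05), and in eat-2 mutants with a log2 fold change of 0.54 ± 0.099, 1.46-fold (adjusted p = 0.00222). tnt-3 stood at 30.7, 35.5, 33.6 and 26.1 CPM in unexposed WT, at 47.4, 60.5, 44.7 and 51.6 CPM in FW1256-exposed WT and at 65.9, 52.1, 59.4 and 59.4 CPM in eat-2 mutants. For tnt-3 all libraries of both groups were above WT and overlapped each other. Its rise was 0.69 ± 0.12 on the log2 scale, 1.61-fold (adjusted p = 0.00133), and in eat-2 mutants it was 0.93 ± 0.11 on the log2 scale, 1.91-fold (adjusted p = 3.87e-04). The calponin-related unc-87 was counted at 3.80% of its larger mean. unc-87 stood at 7.48, 8.21, 5.35 and 5.36 CPM in unexposed WT, at 11.6, 17.4, 12.4 and 10.6 CPM in FW1256-exposed WT and at 15.9, 18.5, 16.7 and 14.3 CPM in eat-2 mutants. unc-87 rose under FW1256 with a log2 fold change of 0.96 ± 0.21, 1.95-fold (adjusted p = 0.00399), and in eat-2 mutants with a log2 fold change of 1.33 ± 0.17, 2.51-fold (adjusted p = 5.12e-04).

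Actin genes rose under FW1256 and were split in eat-2 mutants. All 5 were higher under FW1256, between 1.22-fold and 1.61-fold. In eat-2 mutants act-4 and act-5 were higher, act-2 was lower, and act-1 and act-3 did not pass the test. The genes act-1, act-2 and act-3 lie next to each other on chromosome V, between 11071690 and 11082415, and are near-identical in sequence, so reads may have been divided between them in error. The sum of the 3 is therefore given as well.

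Per transcript length act-2 had the highest level of the thin filament list, at 2144 CPM per kb in unexposed WT. act-2 stood at 2521, 2871, 2904 and 2693 CPM in unexposed WT, at 3570, 3368, 3231 and 3293 CPM in FW1256-exposed WT and at 2230, 2344, 2166 and 2252 CPM in eat-2 mutants. FW1256 libraries were above all WT libraries and mutant libraries were below them. act-2 rose under FW1256 with a log2 fold change of 0.28 ± 0.053, 1.22-fold (adjusted p = 0.00175), and fell in eat-2 mutants with a log2 fold change of -0.27 ± 0.059 (adjusted p = 0.00552). For act-1 the means were 1152 ± 61.0, 1457 ± 80.9 and 1133 ± 29.8 CPM (SD, n = 4) in unexposed WT, FW1256-exposed WT and eat-2 mutants. For act-3 they were 1604 ± 89.3, 2216 ± 136 and 1634 ± 62.5 CPM. The rise of act-1 under FW1256 was 0.33 ± 0.052 on the log2 scale, 1.25-fold (adjusted p = 6.96e-04), and that of act-3 was 0.46 ± 0.055 on the log2 scale, 1.37-fold (adjusted p = 1.60e-04). In eat-2 mutants act-1 had a log2 fold change of -0.0035 ± 0.052 (adjusted p = 0.962), and act-3 had a log2 fold change of 0.05 ± 0.057 (adjusted p = 0.517). The sum of act-1, act-2 and act-3 was 5168 to 5801 CPM in unexposed WT, 6746 to 7462 CPM under FW1256 and 4930 to 5230 CPM in eat-2 mutants. Summed in this way, FW1256 libraries were above WT without overlap, and mutant libraries overlapped WT.

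The muscle actin act-4 lies apart on chromosome X (4960621 to 4964413). act-4 stood at 1700, 1665, 1575 and 1657 CPM in unexposed WT, at 2206, 2265, 2110 and 2119 CPM in FW1256-exposed WT and at 2007, 2224, 1960 and 1929 CPM in eat-2 mutants. Both groups were above WT without overlap. act-4 rose under FW1256 with a log2 fold change of 0.39 ± 0.039, 1.31-fold (adjusted p = 5.23e-05), and in eat-2 mutants with a log2 fold change of 0.32 ± 0.057, 1.25-fold (adjusted p = 0.0019). The actin of the gut microvilli is encoded by act-5 (chromosome III, 13604412 to 13606066). act-5 stood at 325, 465, 406 and 405 CPM in unexposed WT, at 664, 676, 665 and 596 CPM in FW1256-exposed WT and at 628, 932, 595 and 508 CPM in eat-2 mutants. Replicate 2 of the mutants was far above the other 3 libraries of its group. The change under FW1256 was 0.69 ± 0.094 on the log2 scale, 1.61-fold (adjusted p = 3.13e-04), and in eat-2 mutants it was 0.76 ± 0.18 on the log2 scale, 1.69-fold (adjusted p = 0.0083). Of the 10 gut markers, which include act-5 itself, 8 were higher and 1 was lower in eat-2 mutants, and their summed level was 39860 to 44780 CPM against 31800 to 34690 CPM in unexposed WT. Under FW1256 3 of the 10 were higher and 6 were lower, and the sum was 30540 to 35190 CPM. The part of gut content in the change of act-5 was not tested.

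**Figure D3:**
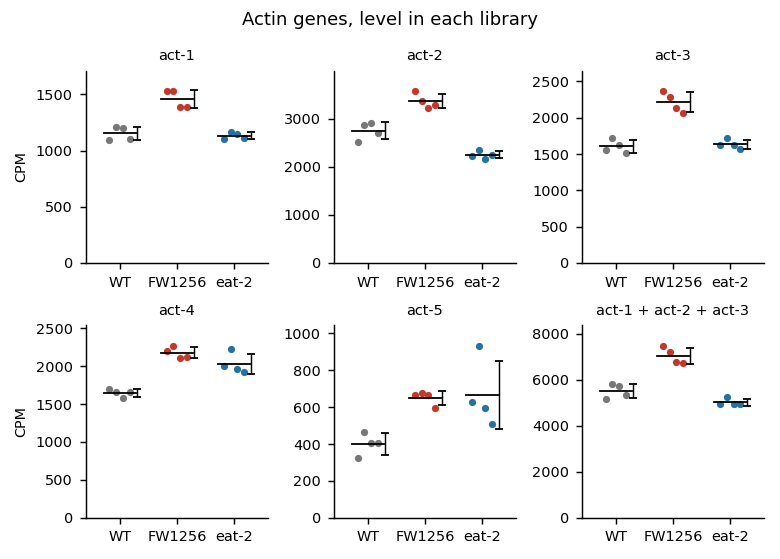
Level in CPM (y axis, from 0) of the 5 actin genes and of the sum of act-1, act-2 and act-3 in each library of unexposed WT (grey), FW1256-exposed WT (red) and eat-2 mutants (blue). Points are libraries, lines are means and bars are the SD of 4 libraries. The FW1256 libraries lie above the WT libraries in every panel, while the mutant libraries lie below WT for act-2, overlap WT for act-1 and act-3, and lie above WT for act-4 and act-5.

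Of 4 genes of muscle attachment and membrane skeleton, 3 were higher under FW1256 and 1 in eat-2 mutants. Among all genes tested, 25.5% were higher under FW1256 and 21.8% in eat-2 mutants. Counts of unc-52, pat-12 and dys-1 appear to hold only part of the gene. Perlecan of the basement membrane is encoded by unc-52 (chromosome II, 14647321 to 14684456), counted at 9.12% of its larger mean. unc-52 stood at 9.90, 13.2, 13.1 and 5.62 CPM in unexposed WT, at 22.7, 25.6, 20.9 and 19.8 CPM in FW1256-exposed WT and at 9.46, 18.2, 6.06 and 8.07 CPM in eat-2 mutants. All FW1256 libraries were above all libraries of the other groups, and the mutants overlapped WT. unc-52 rose under FW1256 with a log2 fold change of 1.08 ± 0.24, 2.11-fold (adjusted p = 0.00426). In eat-2 mutants it had a log2 fold change of 0.02 ± 0.37 (adjusted p = 0.966). A protein of the epidermal attachments of muscle is encoded by pat-12, whose mean was 77.7 ± 8.22 CPM (SD, n = 4) in unexposed WT, 121 ± 6.46 CPM under FW1256 and 89.1 ± 7.24 CPM in eat-2 mutants. pat-12 rose under FW1256 with a log2 fold change of 0.63 ± 0.080, 1.54-fold (adjusted p = 2.17e-04), and in eat-2 mutants had a log2 fold change of 0.22 ± 0.096 (adjusted p = 0.0908). The mutant value of pat-12 was called with library size alone (0.24, adjusted p = 0.047) and without WT replicate 3 (0.29, 0.035).

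Kindlin, which activates integrin at muscle attachments, is encoded by unc-112 (chromosome V, 14691855 to 14696654), the gene with the highest level per length of this list. unc-112 stood at 138, 124, 133 and 141 CPM in unexposed WT, at 156, 146, 164 and 161 CPM in FW1256-exposed WT and at 155, 155, 149 and 146 CPM in eat-2 mutants. Both groups were above WT without overlap. The rise under FW1256 was 0.22 ± 0.056 on the log2 scale, 1.16-fold (adjusted p = 0.00934), and in eat-2 mutants it was 0.20 ± 0.050 on the log2 scale, 1.15-fold (adjusted p = 0.0105). With library size alone in place of TMM scaling, the FW1256 change of unc-112 was 0.16 with an adjusted p of 0.062 and was no longer called. Dystrophin, dys-1, was counted at 4.76% of its larger mean, with means between 6.41 and 12.2 CPM, and did not pass the test in any comparison. Without WT replicate 4 it was called as lower under FW1256 (-1.15, adjusted p = 0.043, against -0.94 with all libraries).

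Intermediate filaments strengthen the epidermis where muscle pulls on it, and ifb-1 (chromosome II, 5765618 to 5772084) encodes one that is needed there. ifb-1 stood at 62.3, 64.8, 64.7 and 66.3 CPM in unexposed WT, at 93.2, 90.9, 84.7 and 83.5 CPM in FW1256-exposed WT and at 73.7, 79.01, 70.1 and 58.6 CPM in eat-2 mutants. FW1256 libraries were above all others. ifb-1 rose under FW1256 with a log2 fold change of 0.44 ± 0.058, 1.35-fold (adjusted p = 2.60e-04), and had in eat-2 mutants a log2 fold change of 0.15 ± 0.093 (adjusted p = 0.225), which was called without eat-2 replicate 4 (0.23, adjusted p = 0.030). The other 2 intermediate filament genes, ifa-1 and ifp-1, had means between 4.38 and 13.6 CPM and did not pass the test in any comparison. Without FW1256 replicate 2 ifp-1 was called as lower under FW1256 than in eat-2 mutants (-0.77, adjusted p = 0.022). Of the 6 hypodermis markers, 2 were higher and 1 was lower under FW1256, and 1 was lower in eat-2 mutants. Both that were higher had partial counts, lin-26 at 17.4% and semo-1 at 1.16% of the larger mean. For all genes tested the shares were 25.5% higher and 24.8% lower under FW1256, and 22.4% lower in eat-2 mutants.

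Of the actin assembly genes, cap-1 encodes a subunit of the protein that caps filament ends (chromosome IV, 7228422 to 7230223). cap-1 stood at 436, 417, 438 and 439.7 CPM in unexposed WT, at 399, 395, 401 and 415 CPM in FW1256-exposed WT and at 416, 389.5, 390.1 and 415 CPM in eat-2 mutants. FW1256 and mutant libraries were below all WT libraries by a small margin. cap-1 fell under FW1256 with a log2 fold change of -0.12 ± 0.033 (adjusted p = 0.0151), and had in eat-2 mutants a log2 fold change of -0.08 ± 0.038 (adjusted p = 0.105). Without a filter on low counts the FW1256 value was -0.10 with an adjusted p of 0.0501, and without FW1256 replicate 1 it was -0.11 with an adjusted p of 0.057, so that it was not called in either. The mutant value was called by DESeq2 (-0.11, adjusted p = 0.038). Profilin pfn-2, which delivers actin monomers, did not pass the test in any comparison, with means between 238 and 254 CPM. With library size alone it was called as lower under FW1256 than in WT (-0.17, adjusted p = 0.029) and than in eat-2 mutants (-0.15, adjusted p = 0.0046), and the latter also with a filter at a mean of 50 counts (-0.12, 0.013) and without eat-2 replicate 4 (-0.10, 0.045).

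Of the 3 tubulin genes, 1 was higher under FW1256, and 2 were lower in eat-2 mutants. Among all genes tested, 25.5% were higher under FW1256 and 22.4% were lower in eat-2 mutants. The beta tubulin tbb-2 (chromosome III, 4015910 to 4017627) had the highest level per transcript length of all members with whole counts, at 2661 CPM per kb in unexposed WT, followed by the alpha tubulin tba-2 at 2509 CPM per kb. tbb-2 stood at 3909, 4037, 4112 and 4058 CPM in unexposed WT, at 4351, 4197, 4033 and 4153 CPM in FW1256-exposed WT and at 3503, 3395, 3313 and 3600 CPM in eat-2 mutants. Mutant libraries were below all WT libraries, and FW1256 libraries overlapped WT. The fall in eat-2 mutants was -0.20 ± 0.044 on the log2 scale (adjusted p = 0.00536), and FW1256 gave a log2 fold change of 0.04 ± 0.036 (adjusted p = 0.336). For tba-2 the means were 4197 ± 134, 4206 ± 169 and 3735 ± 109 CPM (SD, n = 4) in unexposed WT, FW1256-exposed WT and eat-2 mutants. tba-2 fell in eat-2 mutants with a log2 fold change of -0.15 ± 0.046 (adjusted p = 0.0268), and this call was lost without WT replicate 2 (-0.12, adjusted p = 0.088), WT replicate 3 (-0.13, 0.067), eat-2 replicate 1 (-0.14, 0.081) or eat-2 replicate 3 (-0.14, 0.067).

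The second beta tubulin, tbb-1 (chromosome III, 10740868 to 10742432), had means of 1881 ± 91.8 CPM in unexposed WT, 2185 ± 41.6 CPM under FW1256 and 1717 ± 37.0 CPM in eat-2 mutants (SD, n = 4). tbb-1 rose under FW1256 with a log2 fold change of 0.20 ± 0.041, 1.15-fold (adjusted p = 0.00262), and had in eat-2 mutants a log2 fold change of -0.11 ± 0.044 (adjusted p = 0.0668). The mutant change of tbb-1 was called by DESeq2 (-0.13, adjusted p = 0.020), in a single fit over 3 groups (-0.11, 0.026) and without WT replicate 1 (-0.13, 0.048). Both beta tubulins are close in sequence, and their sum was 5714 to 6058 CPM in unexposed WT, 6204 to 6590 CPM under FW1256 and 5020 to 5370 CPM in eat-2 mutants, with no overlap between the groups.

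A pair of kinesins changed in opposite directions in the 2 comparisons. The genes klp-15 (chromosome I, 5577070 to 5579194) and klp-16 (chromosome I, 9512452 to 9514637) encode kinesins of the meiotic spindle, are near-identical to each other, and rose under FW1256 but fell in eat-2 mutants. klp-15 stood at 506, 498, 584 and 507 CPM in unexposed WT, at 676, 674, 629 and 705 CPM in FW1256-exposed WT and at 402, 382, 417 and 448 CPM in eat-2 mutants. klp-16 stood at 534, 522, 589 and 533 CPM in unexposed WT, at 626, 609, 584 and 627 CPM in FW1256-exposed WT and at 382, 362, 401 and 425 CPM in eat-2 mutants. For klp-15 the order of the groups was mutants, WT, FW1256 with no overlap, and for klp-16 FW1256 replicate 3 lay below WT replicate 3. The change of klp-15 under FW1256 was 0.35 ± 0.058 on the log2 scale, 1.27-fold (adjusted p = 9.60e-04), and in eat-2 mutants it was -0.33 ± 0.066 on the log2 scale (adjusted p = 0.00381). That of klp-16 was 0.16 ± 0.045 on the log2 scale, 1.11-fold (adjusted p = 0.0168), and in eat-2 mutants it was -0.45 ± 0.058 on the log2 scale (adjusted p = 4.90e-04). With library size alone the FW1256 change of klp-16 was 0.10 with an adjusted p of 0.101. Since reads may be divided wrongly between the pair, their sum was also taken, and was 1020 to 1173 CPM in unexposed WT, 1212 to 1332 CPM under FW1256 and 744 to 873 CPM in eat-2 mutants.

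Of the other kinesins, klp-12 encodes one that limits axon length. klp-12 stood at 153, 140.2, 143.6 and 147 CPM in unexposed WT, at 161, 159, 145 and 177 CPM in FW1256-exposed WT and at 141, 123, 122 and 131 CPM in eat-2 mutants. It was counted at 37.7% of its larger mean, and mutant replicate 1 overlapped the lowest WT library. Its fall in eat-2 mutants was -0.15 ± 0.056 on the log2 scale (adjusted p = 0.0499), and the call was lost without any one of 7 of the 8 libraries (all but eat-2 replicate 1), with values between -0.16 and -0.12 and adjusted p between 0.060 and 0.135. It was also lost with library size alone (-0.13, adjusted p = 0.115), at a mean of at least 50 counts (-0.13, 0.075) and in a single fit over 3 groups (-0.15, 0.059). Under FW1256 it had a log2 fold change of 0.13 ± 0.062 (adjusted p = 0.117), and without FW1256 replicate 3 this was called (0.17, adjusted p = 0.033). The kinesin-II subunit klp-20, with means between 47.1 and 55.6 CPM, did not pass the test in any comparison, but was called as higher under FW1256 in a single fit over 3 groups (0.24, adjusted p = 0.041) and without WT replicate 4 (0.32, 0.012).

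Dynein, the motor that moves towards microtubule minus ends, was represented by 3 genes that did not move together. The light chain dlc-1 (chromosome III, 6462963 to 6463779) is an LC8 protein that also binds many other partners. dlc-1 stood at 1198, 1302, 1225 and 1123 CPM in unexposed WT, at 1379, 1341, 1311 and 1406 CPM in FW1256-exposed WT and at 1133, 1136, 989 and 1042 CPM in eat-2 mutants. FW1256 libraries were above all WT libraries, and mutant libraries overlapped WT. dlc-1 rose under FW1256 with a log2 fold change of 0.15 ± 0.047, 1.11-fold (adjusted p = 0.0213), a call lost with library size alone (0.10, adjusted p = 0.095), without FW1256 replicate 1 (0.15, 0.051) and without FW1256 replicate 4 (0.14, 0.055). In eat-2 mutants it had a log2 fold change of -0.15 ± 0.067 (adjusted p = 0.0922), which was called by DESeq2 (-0.18, adjusted p = 0.038), in a single fit over 3 groups (-0.15, 0.049), without WT replicate 4 (-0.19, 0.045) and without eat-2 replicate 2 (-0.20, 0.039).

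The heavy chain dhc-1 (chromosome I, 4386785 to 4401907) went the other way and was counted at 12.3% of its larger mean. dhc-1 stood at 97.6, 84.3, 117 and 99.6 CPM in unexposed WT, at 96.3, 66.6, 78.6 and 68.8 CPM in FW1256-exposed WT and at 124, 151, 122 and 133 CPM in eat-2 mutants. Mutant libraries were above all others, while FW1256 replicate 1 lay within the WT range. dhc-1 fell under FW1256 with a log2 fold change of -0.37 ± 0.13 (adjusted p = 0.0402), and rose in eat-2 mutants with a log2 fold change of 0.44 ± 0.11, 1.35-fold (adjusted p = 0.00834). The fall under FW1256 was lost without a filter on low counts (-0.35, adjusted p = 0.057) and without WT replicate 1, 3 or 4 or FW1256 replicate 2, 3 or 4, where it was between -0.38 and -0.28 with adjusted p between 0.070 and 0.108. The light intermediate chain dli-1 stood between 312 and 326 CPM on average in the 3 groups and did not pass the test against WT in either comparison, although with library size alone it was called as lower under FW1256 (-0.11, adjusted p = 0.039).

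Oocyte and germline markers moved in the same direction as several microtubule genes. Of 19 oocyte and germline markers, 18 were lower and 1 did not pass the test in eat-2 mutants, while 8 were higher and 11 did not pass under FW1256. Among all genes tested, 22.4% were lower in eat-2 mutants and 25.5% were higher under FW1256. Their summed level was 25540 to 28590 CPM in unexposed WT, 29310 to 30480 CPM under FW1256 and 19530 to 21100 CPM in eat-2 mutants, without overlap. None of the 19 was at 0 in all libraries. Germ cells and embryos use tba-2, tbb-1, tbb-2, klp-15, klp-16, act-2 and mlc-5, and the part of germline content in the changes of these genes was not tested.

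**Figure D4:**
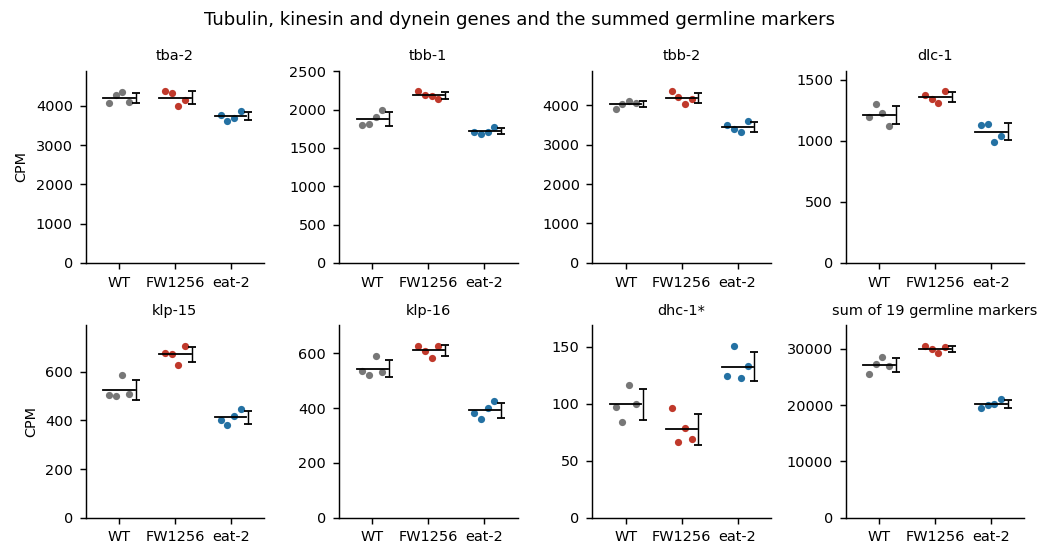
Level in CPM (y axis, from 0) of 7 tubulin, kinesin and dynein genes and of the sum of 19 oocyte and germline markers, in each library of unexposed WT (grey), FW1256-exposed WT (red) and eat-2 mutants (blue). Points are libraries, lines are means and bars are the SD of 4 libraries; an asterisk marks counts that appear to hold only part of the gene. The mutant libraries are lowest for tba-2, tbb-1, tbb-2, klp-15, klp-16 and the marker sum, and highest for dhc-1.

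FW1256-exposed WT and eat-2 mutants were then compared with each other, in a fit that used no WT library. Of the 39 members, 22 were higher in FW1256-exposed WT, 3 were lower and 14 did not pass the test, out of 3715 genes tested. Of all genes tested 69.3% were called, 33.1% as higher and 36.2% as lower. The median log2 fold change was 0.22 over the members and -0.045 over all genes tested. In 22 members every FW1256 library lay above every mutant library and in 1 every library lay below, where the same held for 33.2% and 31.9% of all genes tested (65.2% in either direction). With library size alone 19 members were higher and 7 were lower, and of all genes tested 1011 were higher and 1497 lower, against 1229 and 1346 with TMM.

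Of the 16 members that were higher than unexposed WT in both groups, 8 were higher again under FW1256 than in eat-2 mutants. Among all genes tested, 33.1% were higher under FW1256 than in eat-2 mutants. The share of all genes that were higher than WT in both groups was not computed, nor the share of those higher again. The 8 members were unc-54, unc-15, unc-22, tnt-2, lev-11, pat-10, tni-3 and mup-2. The largest of these differences was that of tnt-2, with a log2 fold change of 1.03 ± 0.098, 2.04-fold (adjusted p = 1.10e-05). Tropomyosin lev-11 had a log2 fold change of 0.68 ± 0.084, 1.60-fold (adjusted p = 6.14e-05), paramyosin unc-15 a log2 fold change of 0.54 ± 0.067, 1.46-fold (adjusted p = 6.56e-05) and myosin unc-54 a log2 fold change of 0.48 ± 0.087, 1.40-fold (adjusted p = 7.54e-04). The smallest was that of tni-3, with a log2 fold change of 0.21 ± 0.057, 1.16-fold (adjusted p = 0.00742), and it was not called with library size alone (0.14, adjusted p = 0.056).

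Only tni-4 of the 16 was lower under FW1256 than in eat-2 mutants. The pharyngeal troponin I had a log2 fold change of -0.22 ± 0.066 (adjusted p = 0.0143), and in a single fit over 3 groups it was not called (-0.20, adjusted p = 0.061). The other 7, myo-1, mlc-3, act-4, act-5, tnt-3, unc-87 and unc-112, did not pass the test, with log2 fold changes between -0.37 and 0.06. For pharyngeal myo-1 it was a log2 fold change of -0.10 ± 0.12 (adjusted p = 0.465). For unc-87 and tnt-3 the call depended on the processing: unc-87 (-0.37, adjusted p = 0.063) and tnt-3 (-0.25, 0.052) were called as lower with library size alone (-0.45 and -0.33), with a filter at a mean of 50 counts (-0.42 and -0.30) and without FW1256 replicate 2 (-0.53 and -0.33). Without eat-2 replicate 2 tnt-3 was called (-0.31) and act-4 was called as higher (0.10), and without eat-2 replicate 4 unc-87 was called (-0.44).

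All 3 genes that rose under FW1256 and fell in eat-2 mutants were called as higher under FW1256 than in eat-2 mutants. These 3, like dhc-1 below, were chosen by calls on the same libraries. The direction was thus set by the choice, and the result is no separate support. For klp-15 the difference was a log2 fold change of 0.67 ± 0.047, 1.59-fold (adjusted p = 1.99e-06), for klp-16 a log2 fold change of 0.61 ± 0.044, 1.52-fold (adjusted p = 2.36e-06) and for act-2 a log2 fold change of 0.55 ± 0.045, 1.46-fold (adjusted p = 4.77e-06). The heavy chain dhc-1, which went the opposite way, had a log2 fold change of -0.81 ± 0.12 (adjusted p = 2.22e-04). Tubulins were all higher under FW1256, tbb-1 by 0.31 ± 0.031, tbb-2 by 0.24 ± 0.039 and tba-2 by 0.14 ± 0.038 (log2, ± SE). With library size alone or a filter at a mean of 50 counts, tba-2 (0.06 and 0.08) and mlc-5 (0.04 and 0.06) were not called, where their values were 0.14 and 0.11.

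The 7 members that were called as higher under FW1256 and not called in eat-2 mutants, act-1, act-3, pat-12, unc-52, ifb-1, dlc-1 and tbb-1, were all called as higher under FW1256 than in eat-2 mutants. They too were chosen by calls on the same libraries, which largely set this direction. Perlecan unc-52 had a log2 fold change of 1.04 ± 0.30, 2.06-fold (adjusted p = 0.0104). The difference for ifb-1, 0.29 with an adjusted p of 0.022, was not called without FW1256 replicate 1 (0.26, adjusted p = 0.056). The dynein chain dli-1 was lower under FW1256 by a log2 fold change of -0.10 ± 0.034 (adjusted p = 0.0259), a call lost with DESeq2 (-0.06, adjusted p = 0.300), with DESeq2 size factors (-0.08, 0.108), without a filter (-0.09, 0.075), in a single fit over 3 groups (-0.08, 0.053) and without FW1256 replicate 2, 3 or 4 or eat-2 replicate 1 or 4 (between -0.10 and -0.08, adjusted p between 0.059 and 0.133).

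**Figure D5:**
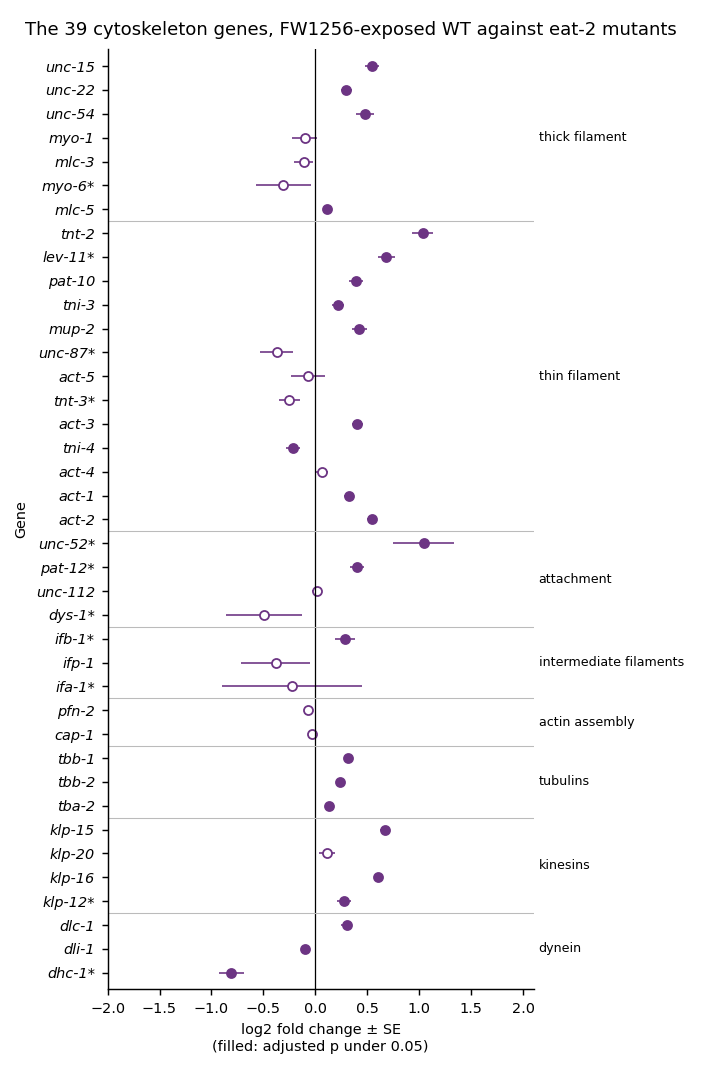
Log2 fold change (x axis, ± SE) of FW1256-exposed WT over eat-2 mutants for each of the 39 genes, 4 libraries per group, grouped by role on the y axis. Values to the right of 0 are higher under FW1256; filled points have an adjusted p under 0.05 and an asterisk marks counts that appear to hold only part of the gene. Filled points to the right are 22 of the 39, and tni-4, dli-1 and dhc-1 are the 3 filled points to the left.

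Other genes of the same processes, listed by name but outside the 39, were also counted. Of 20 other muscle genes, 6 were higher and 4 were lower under FW1256, and 10 were higher and 10 did not pass the test in eat-2 mutants. Of all genes tested, 25.5% were higher and 24.8% were lower under FW1256, and 21.8% were higher and 22.4% were lower in eat-2 mutants. Muscle genes that rose in both were clik-1, which encodes a calponin-like protein, zyx-1 (zyxin), sca-1 (the calcium pump of the sarcoplasmic reticulum), twk-18 (a muscle potassium channel) and unc-105. For clik-1 the log2 fold change was 1.39 under FW1256 and 0.69 in eat-2 mutants, and for sca-1 it was 0.53 and 0.48. As with the 11 members above, the counts of sca-1 (22.8% of the larger mean), zyx-1 (47.3%) and unc-105 (78.1%) appear to hold only part of the gene. Those that fell under FW1256 were tpa-1, unc-23, stn-1 (syntrophin) and crt-1 (calreticulin), with log2 fold changes between -1.21 and -0.14, and tpa-1 (55.4%) and unc-23 (36.8%) had partial counts. The median over the 20 was -0.04 under FW1256 and 0.38 in eat-2 mutants.

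Among other actin genes, 3 were higher and 4 were lower under FW1256 and 2 were higher and 7 were lower in eat-2 mutants, of 19 tested. Among other microtubule genes 6 were higher and 3 were lower under FW1256, of 18 tested, and 6 were higher and 6 were lower in eat-2 mutants, of 19 tested. Spindle and centrosome genes spd-2, spd-5 and zen-4 were higher under FW1256 and lower in eat-2 mutants, in the direction of klp-15 and klp-16. Of these, zen-4 was counted at 17.8% of its larger mean. Others of the list did not share this pattern. The kinesin bmk-1 was lower under FW1256 (-0.21, adjusted p = 0.016) and not called in eat-2 mutants (0.085). For cls-2 neither value was called (-0.13 and 0.11). The gene cls-3 was not called under FW1256 (-0.15) and was lower in eat-2 mutants (-0.21). The neuronal genes unc-33, unc-104 and vab-8 were higher in both, with unc-33 counted at 89.4% and vab-8 at 43.5% of the larger mean. From the same list, klc-2 was lower under FW1256 (-0.48, adjusted p = 5.32e-04) and higher in eat-2 mutants (0.23). Both ptl-1 and elp-1 were higher in eat-2 mutants only, with uncalled values of -0.26 and -0.17 under FW1256. With partial counts (50.3%), unc-44 was called in neither (-0.60 and 0.42). Of the 5 neuron markers that could be tested, 1 was higher under FW1256 and 4 were higher in eat-2 mutants. Of these 4, unc-64 (24.3% of the larger mean) and unc-25 (82.35%) had partial counts, and unc-47 had group means between 0.78 and 1.5 CPM.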

How the data were processed

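The authors aligned reads to transcripts of the WBcel235 build with kallisto 0.46.0 and, per their methods, turned the abundances into estimated counts per gene with tximport, scaled by transcript length and library size. These estimated counts were deposited per library, without normalization between libraries, and the authors compared groups with DESeq2 1.24.0. The deposited tables of those comparisons hold log2 fold changes, standard errors and p-values, which were not used. Only their mean count columns served, to find genes whose per-library counts hold part of the gene (under 90% of the other mean).

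Here the estimated counts were rounded and each pair of groups was fitted with edgeR 4.0.16 (R 4.3.3): genes with low counts were filtered (filterByExpr), libraries were scaled by TMM, and the quasi-likelihood test was applied with Benjamini-Hochberg adjustment over all genes tested, at an adjusted p of 0.05. CPM used TMM factors over all 12 libraries, and gene positions came from Ensembl release 115. Totals were 14769332 to 19199982 counts per library; no interval was computed from counts, since replicates differed by more than counting noise. Levels per kb used the longest annotated transcript. Of the gene IDs, 1 was not in the annotation.

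Values in every library were given, in each comparison with WT, for up to 6 called members with the largest rise and 6 with the largest fall at a mean of at least 50 counts, for up to 6 members with opposite calls, and for the member of each role list with the highest level per length. A few others (unc-54, unc-22, act-4 and act-5) were added after their values were seen. Members and lists were chosen with earlier results of these data known. Alternatives were DESeq2 1.42.0, its size factors, library size alone, no filter, a mean of at least 50 counts, a single fit over 3 groups, other thresholds, the replicate number as a block and leaving out each library.

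On simulated counts with 200 changed genes, the test of FW1256-exposed against unexposed WT recovered 72 of 100 genes changed 1.5-fold and 91 of 100 changed 2-fold. It gave 11 false calls among the unchanged genes of the 3616 run. For eat-2 mutants against WT it recovered 81 and 92, with 14 false calls among the unchanged genes of 3786 run. For FW1256-exposed WT against eat-2 mutants it recovered 82 and 93, with 6 false calls among the unchanged genes of 3715 run. The changed genes were drawn from those with a mean of at least 50 counts, with rises and falls at equal odds. In the data between 44.2% and 69.3% of genes were called, a far larger share, so these rates need not hold there or for genes with fewer counts.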

Additional observations from a re-analysis of the deposited data

Results flagged for a closer look

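In 3 of 117 groups of 4 libraries, each a member in one group, the highest or the lowest library stood apart from the other 3. The level of klp-15 in unexposed WT replicate 3 was 584.1 CPM, where the other 3 WT libraries lay between 497.8 and 506.7 CPM. The level of act-5 in FW1256 replicate 4 was 596.3 CPM, below the other 3 at 664.2 to 675.9 CPM. The level of tni-3 in unexposed WT replicate 2 was 33.53 CPM, above the other 3 at 29.9 to 30.43 CPM. Chance flags about 5% of such groups.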

How the results depend on the processing

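With a limit of 1.5-fold beside the adjusted p, 15 members were called under FW1256 (15 higher, 0 lower by edgeR), 10 in eat-2 mutants (10 higher, 0 lower) and 6 between FW1256-exposed WT and eat-2 mutants (5 higher, 1 lower). Of all genes tested, that limit left 761 under FW1256 (236 higher, 525 lower), 508 in eat-2 mutants (461 higher, 47 lower) and 1143 between the 2 groups (196 higher). At an adjusted p of 0.01, 1054 genes were called in eat-2 mutants, 483 of them higher, 0 members were lower under FW1256 than in WT and 1 was lower than in eat-2 mutants. The 2 members lower under FW1256 became 5 with library size alone, 0 without a filter and 1 to 2 with a library left out. The 3 members lower under FW1256 than in eat-2 mutants became 7 with library size alone, 7 at a mean of at least 50 counts, 1 in a single fit over 3 groups and 2 to 5 with a library left out. Leaving out a library gave totals of 26 to 29, 22 to 24 and 24 to 27 called members in the 3 comparisons.

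Of 117 member values, 6 changed their direction or their side of the threshold with DESeq2, 1 with its size factors, 19 with library size alone, 9 at a mean of at least 50 counts, 4 without a filter and 7 in a single fit over 3 groups. With a library left out, 875 of 936 changed neither, 26 lost a call, 15 gained one and 20 changed sign. The median over all genes between FW1256-exposed WT and eat-2 mutants was -0.045 and moved to -0.24 with DESeq2 and -0.27 without a filter, over more genes tested.

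Values that changed sign did not pass the test either way, and the cause was not tested. Under FW1256, tba-2 was 0.0088 without a filter and 0.0032 in a single fit over 3 groups, and tbb-2 was -0.015 with library size alone. In eat-2 mutants, unc-52 was -0.0039 with DESeq2, and act-1 was 0.018 with library size alone and 0.019 at a mean of at least 50 counts. Between FW1256-exposed WT and eat-2 mutants, cap-1 was 0.0040 with DESeq2, unc-112 was -0.058 with library size alone and -0.035 at a mean of at least 50 counts, and act-4 was -0.0099 with library size alone. With a library left out, under FW1256 ifp-1 ranged from -0.24 to 0.33 and tba-2 from -0.021 to 0.018. In eat-2 mutants act-1 ranged from -0.035 to 0.035, pfn-2 from -0.074 to 0.027 and unc-52 from -0.41 to 0.21. Between the 2 groups act-5 ranged from -0.19 to 0.13, ifa-1 from -0.53 to 0.17, myo-1 from -0.20 to 0.00017 and unc-112 from -0.0063 to 0.057.

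Replicate numbers are shared by the groups, and nothing in the labels says what a number marks. Of 12 same-numbered pairs, 3 had a correlation over 0.1 (range -0.044 to 0.237). In 6 of 12 comparisons of a library with the 4 libraries of another group, the correlation was highest for its own number. The main fits did not treat the numbers as a pairing, and these values do not settle whether they mark one. Replicate 2 was the highest library in all 3 groups for 8 members (act-5, lev-11, mlc-3, myo-1, tni-3, tni-4, unc-52 and unc-87), and the cause was not tested. With the replicate number as a block, 28 members were called under FW1256, 26 in eat-2 mutants (dlc-1 and pat-12 were added) and 26 between FW1256-exposed WT and eat-2 mutants (unc-87 was added, at -0.39), and unc-52 in eat-2 mutants was -0.015.

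All levels are shares of the genes in these tables, and partial counts limit 11 members and 1061 of 5114 genes with both means.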
